A study of Mus musculus with 2 samples.

Results

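Mir143 and Mir145a are a pair of neighbouring microRNA (miRNA) genes on mouse chromosome 18, taken here by gene name from the annotation that the deposited counts use. They are 2 of the 2202 miRNA genes in the tables, and the rule that names them uses no measured value, although earlier results of these data were known when they were chosen. The samples were 2 small RNA libraries, labelled biological replicates 1 and 2, from the hearts of male B6CASTF1/J mice aged 18 to 20 months. B6CASTF1/J mice are F1 hybrids of the C57BL/6J and CAST/EiJ strains. The labels name no treatment, transgene or mutation and place the libraries in 1 group, so no comparison between conditions was possible. The biosamples are separate while the donor record is shared. The difference between the libraries may therefore be technical, and p-values here say nothing of the spread between animals.

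A miRNA is cut from a hairpin in a longer transcript and, once loaded on an Argonaute protein, represses messenger RNAs that match its seed, bases 2 to 8. miR-143 and miR-145 are known as miRNAs of smooth muscle and of pericytes, the contractile cells around vessels. There their transcription depends on serum response factor and its coactivator myocardin. miR-145 represses Klf4 and Klf5, transcription factors of the proliferating state of smooth muscle, and miR-143 represses Elk1, a competitor of myocardin. In the heart they are known from the walls of coronary arteries and arterioles, and also from the embryonic heart.

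The levels of the pair were set beside miRNAs that mark other cells of the heart. Mature sequences of 4 of these markers, as listed by RefSeq on GRCm38.p6 and with the seed in capitals, are given below. A single arm is printed for each. miR-126a-3p is the miRNA of endothelium, miR-208a-3p and miR-499-5p come from introns of cardiac myosin genes, and miR-214-3p is known from fibroblasts and other stroma.
miR-126a-3p (chr2:26591402-26591423, plus strand): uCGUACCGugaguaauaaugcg
miR-208a-3p (chr14:54949072-54949093, minus strand): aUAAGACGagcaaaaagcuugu
miR-499-5p (chr2:155622893-155622913, plus strand): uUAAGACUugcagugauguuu
miR-214-3p (chr1:162223438-162223459, plus strand): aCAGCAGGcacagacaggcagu
The tables count reads per gene, so the arms of a hairpin are not told apart in any value given here.

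Mir143 (ENSMUSG00000065445.3) lies on the minus strand of chromosome 18 in GRCm38, at 61649196 to 61649258. Mir145a (ENSMUSG00000065592.2) lies downstream of it on the same strand, at 61647825 to 61647894, with 1301 bases between the hairpins. No other miRNA gene is annotated within 100 kb of them. The nearest abundant one, Mir378a, lies 249.9 kb away. Carmn, the long noncoding RNA known as the host transcript of the pair, ends 366 bases upstream of Mir143 in GENCODE release M21 (61649625 to 61665537, ENSMUSG00000097324.8). By that annotation both hairpins are therefore intergenic, neither exonic nor intronic. In RefSeq, on the same build, Carmn runs from 61645878 to 61665538 and covers both hairpins. Bvht, a long noncoding RNA known from cardiac lineage commitment, lies beyond Mir145a on the opposite strand (61639542 to 61647472) and overlaps neither hairpin.

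**Figure D1:**
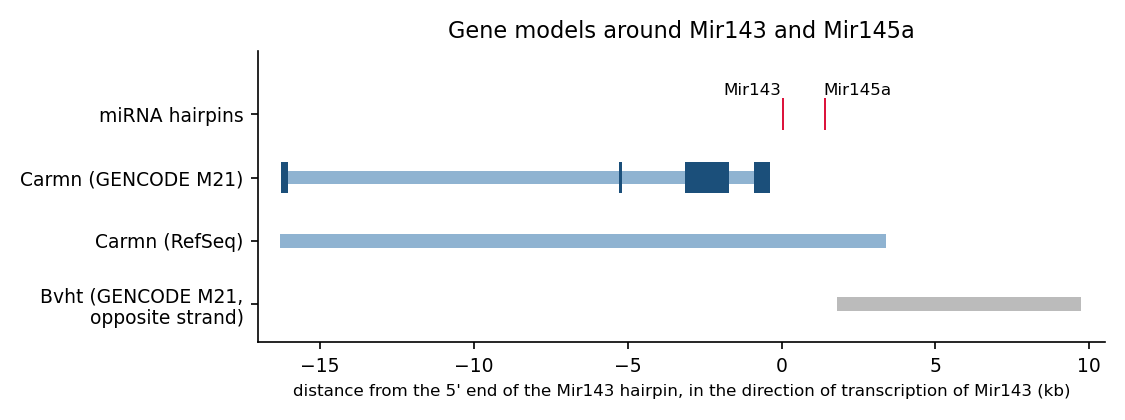
Gene models around Mir143 and Mir145a, with distance from the 5′ end of the Mir143 hairpin in kb on the x axis and one annotation per row; dark blocks are Carmn exons of GENCODE M21. The GENCODE model of Carmn ends 366 bases before Mir143, whereas the RefSeq model spans both hairpins.

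Neither hairpin is a near copy of another miRNA gene. The Mir143 hairpin is 63 bases long with 55.6% G and C, and the Mir145a hairpin is 70 bases long with 48.6%, on either side of the median of 51.5% for hairpins of detected genes. Detected here means 10 or more reads in each library, which 321 genes reached. The longest stretch that Mir143 has in common with any other annotated hairpin, on either strand, is 11 bases. For Mir145a it is 17 bases, in common with Mir145b, a gene 7.37 Mb away on the same chromosome. Of the 2202 genes, 1081 share a stretch of at least 22 bases with another hairpin, and neither Mir143 nor Mir145a is among them. Mir145b itself had 1 read in replicate 1 and 3 in replicate 2. With each other, Mir143 and Mir145a have no common stretch longer than 5 bases.

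Mir143 was among the miRNA genes with the most counted reads. Multimapping reads, 40.7% of replicate 1 and 32.5% of replicate 2, entered no gene's count. The levels and shares below therefore hold among counted reads and can be too high for the tissue. It had 132795 reads in replicate 1 and 204188 in replicate 2. Per 1000000 reads in miRNA genes (CPM) these were 43725 and 38639 CPM, a mean of 41182 ± 3596 CPM (SD, n = 2). The share of Mir143 among counted miRNA reads was 4.37% (4.35 to 4.40, 95% Wilson interval) in replicate 1 and 3.86% (3.85 to 3.88) in replicate 2, or 1 read in every 22.9 and 25.9. The intervals cover counting error only. The library values lay farther apart than these intervals, and replicate 1 was the higher one.

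Mir145a was lower in both libraries by more than an order of magnitude. It had 5976 reads in replicate 1 and 10576 in replicate 2, which were 1968 and 2001 CPM and averaged 1985 ± 23.8 CPM (SD, n = 2). Its share came to 0.197% (0.192 to 0.202, 95% Wilson interval) in replicate 1 and 0.200% (0.196 to 0.204) in replicate 2, so the intervals of the libraries overlapped. On the opposite strand neither gene had a read in either library. A count of 0 allows up to 3 reads, which is 0.988 CPM in replicate 1 and 0.568 CPM in replicate 2.

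By rank, Mir143 stood at place 9 of all 2202 miRNA genes in replicate 1, in replicate 2 and by mean level. Mir145a stood at place 46 in replicate 1, 49 in replicate 2 and 49 by mean level, with 39 genes between the members. Among the 321 detected genes, 97.2% had a lower mean level than Mir143 and 84.7% a lower one than Mir145a. The median detected gene had 67.4 CPM. Mir143 was 611-fold and Mir145a 29.4-fold above that level. The most abundant gene, Mir378a, exceeded Mir143 by 3.17-fold in mean level. Multimapping reads entered no gene's count, so miRNAs with near-identical copies can rank too low. Among genes without a shared 22-base stretch, Mir143 stood at place 7 and Mir145a at place 41. That order leaves out genes with a shared stretch, Mir378a and Mir126a among them. It restores no uncounted reads, so it does not show how far copies rank too low.

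**Figure D2:**
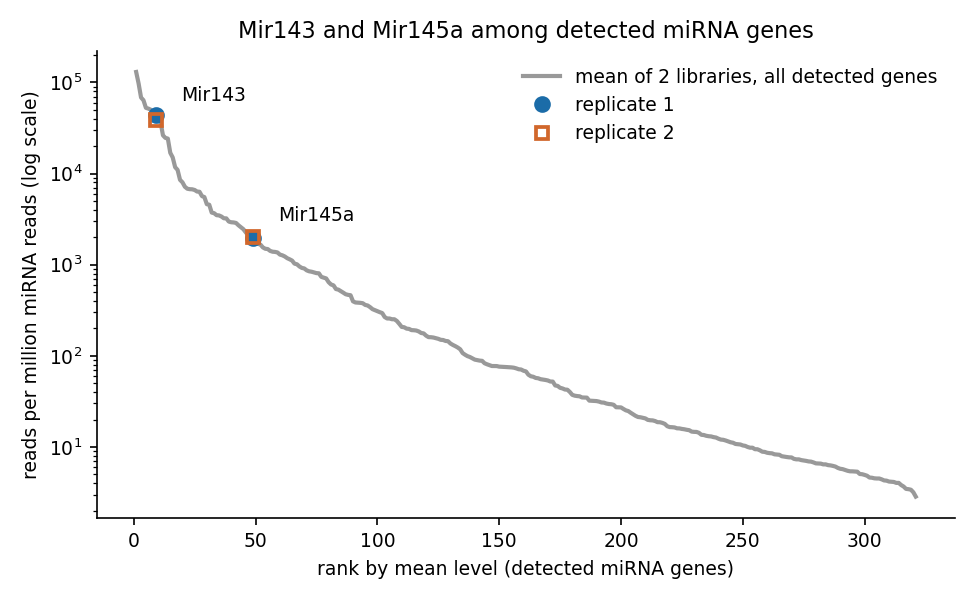
Mean level of each detected miRNA gene in CPM (y axis, log scale) against its rank (x axis), with the value of Mir143 and Mir145a in each library as points. Mir143 sits on the steep left end at place 9 and Mir145a at place 49, and the points of the libraries nearly coincide for both genes.

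The order next to Mir143 was only partly firm. Above it by mean level were Mir23a (63782 CPM in replicate 1 and 39539 in replicate 2), Mirlet7d (50750 and 49723 CPM) and Mir23b (56088 and 37723 CPM). The ranges of Mir23a and Mir23b over the libraries overlapped that of Mir143, and Mirlet7d lay above it in both libraries. Below it, Mir139 (35810 and 40644 CPM) and Mir99a (42054 and 31680 CPM) overlapped it as well, whereas Mir26b (31389 and 21213 CPM) lay below it in both. In replicate 2 Mir139 exceeded Mir143. The ranges thus did not separate Mir143 from 4 of its 6 neighbours. Compared within each library, Mir23a lay above Mir143 and Mir99a below it in both. Mir23b and Mir139 changed order with Mir143 between the libraries.

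Around Mir145a the levels were closer still. Mir130a (2817 and 1711 CPM), Mir195a (2466 and 1737 CPM) and Mir744 (1899 and 2259 CPM) had higher means, and each range contained both values of Mir145a. Mir674, next below, ran from 1216 to 2208 CPM and also contained them. Mir146 (1535 and 1849 CPM) and Mirlet7c-2 (1620 and 1709 CPM) lay below Mir145a in both libraries. The Mir145a values differed by less than those of each of these 6 neighbours.

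**Figure D3:**
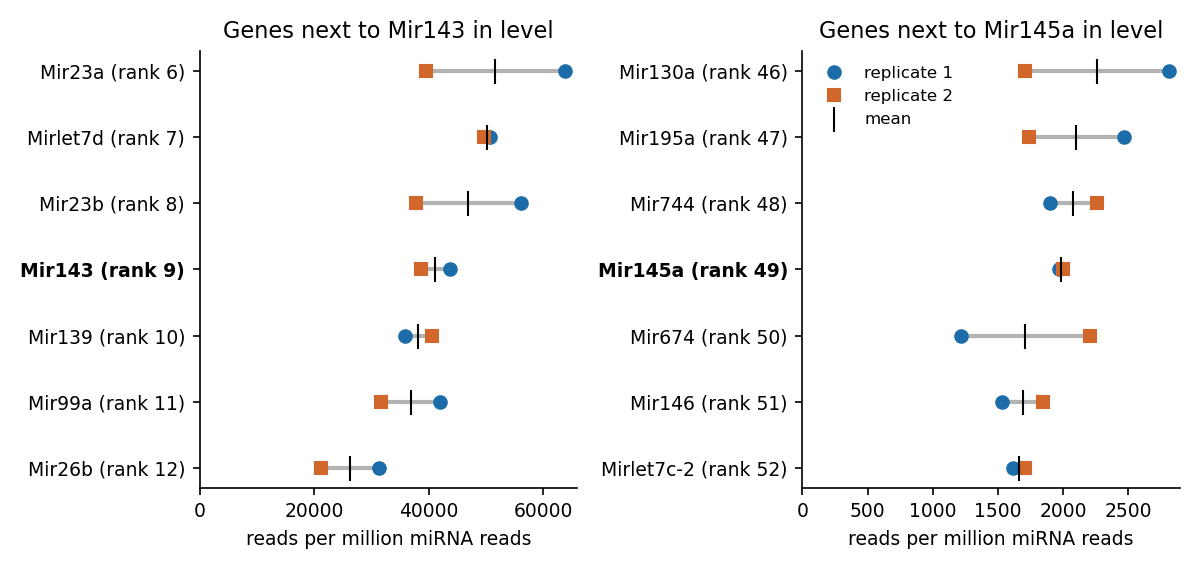
CPM of Mir143 (left) and Mir145a (right) and of the 3 genes next above and below each by mean level. Circles are replicate 1, squares replicate 2, ticks the mean, and lines join the values of the libraries. The Mir143 line overlaps those of Mir23a, Mir23b, Mir139 and Mir99a, and the short Mir145a line lies inside those of Mir130a, Mir195a, Mir744 and Mir674.

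The genes most like each member were found by the distance between their log2 CPM values over the 2 libraries. For Mir143 they were Mir99a (distance 0.29), Mir139 (0.30), Mir23b (0.36), Mirlet7d (0.42) and Mir23a (0.55). For Mir145a they were Mir744 (0.18), Mirlet7c-2 (0.36), Mir146 (0.38), Mir195a (0.38) and Mir328 (0.46). None of these 10 genes lies on chromosome 18. With 2 libraries this likeness rests almost wholly on a similar level.

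Within each library Mir143 exceeded Mir145a about as much. The ratio of their reads was 22.2 in replicate 1 (exact 95% interval 21.7 to 22.8) and 19.3 in replicate 2 (18.9 to 19.7), a mean log2 ratio of 4.37 ± 0.14 (SD, n = 2). This ratio needs no scaling by depth. Mir145a made up 4.31% of the reads of the pair in replicate 1 and 4.92% in replicate 2. Per base of annotated hairpin the ratios were 24.7 and 21.5, although a read of a library with inserts under 30 bases spans a mature miRNA and not the hairpin. The counts do not show how far the ratio reflects the amounts in the tissue, because how readily each miRNA is ligated and amplified was not measured.

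The ratio differed between the libraries by more than counting error. It was 1.15 times as high in replicate 1 as in replicate 2 (95% interval 1.11 to 1.19, Fisher's exact test, two-sided, p = 1.47e-17). On the log2 scale the change from replicate 1 to replicate 2 was -0.20. The test compares these 2 libraries and not conditions.

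To place this ratio, all next neighbours among miRNA genes on the same strand with at most 10 kb between them were compared, where both genes were detected. There were 66 such pairs, some of which share a gene, and their median log2 ratio of the higher over the lower member was 2.60. The pair of Mir143 and Mir145a was the 15th most unequal. Of the 14 more unequal ones, 9 held a gene that shares a 22-base stretch with another hairpin and can lose reads for that reason. Among the 35 pairs without such a gene, Mir143 and Mir145a were the 6th most unequal, and among the 17 pairs with at least 1000 reads for each member in each library, the 4th.

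The most unequal neighbours were Mir29a over Mir29b-1 (mean log2 ratio 9.39), Mir214 over Mir199a-2 (9.01) and Mirlet7d over Mirlet7f-1 (7.64), and in each the lower member shares a stretch. Next to the pair in this order were Mir127 over Mir434 (4.53) and Mir100 over Mirlet7a-2 (4.47) on one side, and Mir181a-1 over Mir181b-1 (4.31) and Mir23a over Mir27a (4.29) on the other. The most even were Mirlet7e over Mir99b (0.09), Mir300 over Mir381 (0.13) and Mir667 over Mir376c (0.13). Large inequality between neighbours was thus common in these libraries.

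The ratio of Mir143 to Mir145a was steadier than most. Its absolute change of 0.20 between the libraries was exceeded in 52 of the 66 pairs, whose median was 0.58. Many pairs have fewer reads and so a larger counting error. With at least 1000 reads for each member in each library it was exceeded in 13 of 17 pairs, whose median was 0.44. The change of Mir221 over Mir222, for example, a pair of endothelial miRNAs, was -1.07. That pair is not among the 17, as Mir222 had 266 reads in replicate 1. Its absolute change stood at place 54 of the 66, counted from the smallest.

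**Figure D4:**
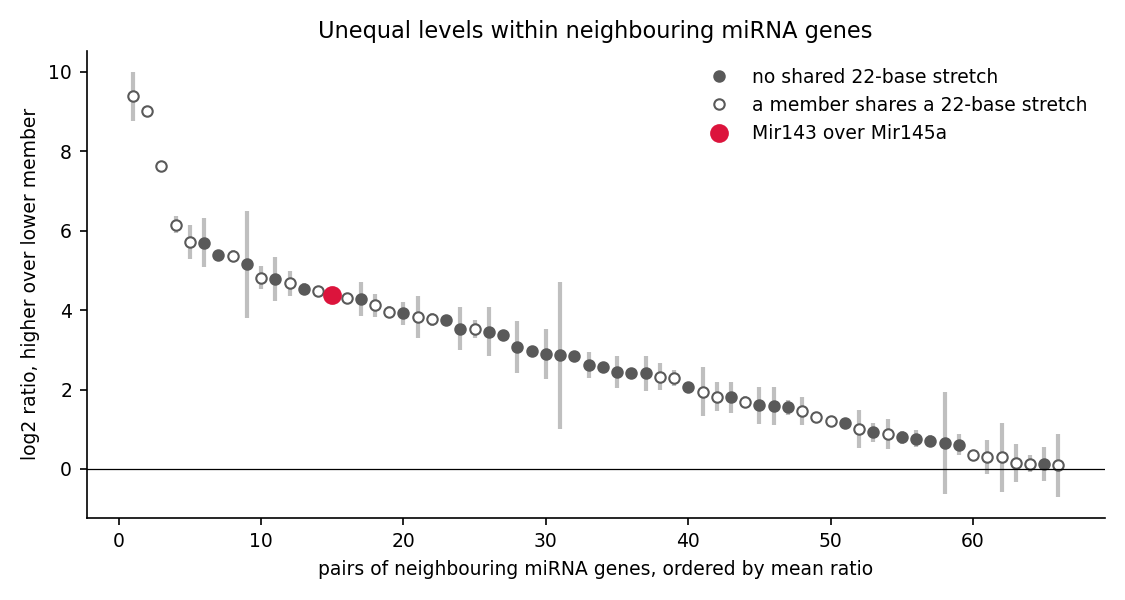
Log2 ratio of the higher over the lower member (y axis) for 66 pairs of neighbouring miRNA genes, ordered by their mean ratio (x axis). Points are means of 2 libraries, lines join the library values, and open points mark pairs with a gene that shares a 22-base stretch. The pair of Mir143 and Mir145a stands at place 15 with a mean of 4.37 and a short line.

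Taken singly, Mir143 and Mir145a differed in how they compared between the libraries. Mir143 was lower in replicate 2, with a log2 ratio of replicate 2 over replicate 1 of -0.18 (95% interval -0.19 to -0.17; adjusted p = 8.00e-266, exact binomial test with Benjamini-Hochberg adjustment over 424 genes). Mir145a had a log2 ratio of 0.02 (-0.02 to 0.07; adjusted p = 0.411, same exact test). This test holds counting error only, and 52.8% of the 424 tested genes passed it, 21.9% as higher in replicate 1 and 30.9% as higher in replicate 2. One call among the members is near that background. With the common dispersion of the same pair of libraries in the exact test of edgeR, 12 genes passed (2.83%) and neither member did (adjusted p = 1 for each). That dispersion, a coefficient of variation of 40.8%, was estimated from the same differences that were tested. Changes as small as these could hardly pass, so no conclusion is drawn from their failing.

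In size, both changes were small beside those of other genes. The median absolute log2 ratio of the 321 detected genes was 0.38, and it was smaller than that of Mir143 in 78 and smaller than that of Mir145a in 11 of them. Among the 67 detected genes above 1000 CPM, 3 were called in neither direction, Mir145a included. Relative to all reads of a library, in place of miRNA reads, every log2 ratio falls by 0.25. On that scale Mir143 had 14025 and 10431 and Mir145a 631 and 540 reads per 1000000 in replicates 1 and 2. Both were then lower in replicate 2 (log2 ratios -0.43 and -0.22). Unmapped reads made up 19.4% of replicate 1 and 34.3% of replicate 2.

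In bulk tissue, fewer smooth muscle cells and less miRNA per cell cannot be told apart. The heart label was met by Mir208a (5184 and 9154 CPM) and Mir499 (5559 and 5487 CPM), the myosin-intron miRNAs of cardiomyocytes. Mir143 was the more abundant, 8.43 and 4.22 times Mir208a and 7.87 and 7.04 times Mir499 in replicates 1 and 2. Mir145a was the less abundant, with Mir208a at 2.63 and 4.57 times and Mir499 at 2.82 and 2.74 times its reads. The log2 ratio of Mir145a to Mir499 was the steadiest of those to the 8 detected markers, -1.48 ± 0.03 (SD, n = 2). Of the other genes of the cardiomyocyte list, Mir208b had 152 and 612 reads, below both members. Those of miR-1 and miR-133a each share a stretch with a copy, and the highest of them, Mir1a-2, had 84 and 141 counted reads.

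Mir126a, the defining marker of endothelium, was above both members. It had 1.95 and 2.84 times the reads of Mir143 and 43.3 and 54.9 times those of Mir145a. The other endothelial genes were lower. Mir221 (1469 and 4352 CPM) lay below Mir143 in both libraries and on either side of Mir145a, Mir222 (87.6 and 546.5 CPM) lay below both members, and Mir126b had 1 and 8 reads. Against stromal Mir214, Mir143 was 22.6 and 10.1 times as high, whereas Mir145a was even with it in replicate 1 (ratio 1.02) and lower in replicate 2 (0.53). Mir199a-2, the other defining marker of stroma, shares a stretch with a copy and had 12 and 37 counted reads, so that Mir145a was 498 and 286 times as high. Of the leukocyte list, the defining markers Mir142 and Mir223 were lower than both members, with log2 ratios of 6.74 ± 0.06 and 8.07 ± 0.28 for Mir143 and 2.37 ± 0.21 and 3.69 ± 0.14 for Mir145a (SD, n = 2 for each). The other genes of that list, Mir150 (2843 and 3115 CPM) and Mir155 (3152 and 3608 CPM), lay below Mir143 and above Mir145a in both libraries. Among the detected markers, the ratio to Mir451a of red blood cells was the least steady. Mir143 exceeded Mir451a 8.92-fold in replicate 1 and 40.8-fold in replicate 2. Mir145a was below Mir451a in replicate 1 (0.40) and above it in replicate 2 (2.11). Epithelial Mir205, the defining marker that was not detected, had 7 reads in replicate 1 and 10372 in replicate 2.

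**Figure D5:**
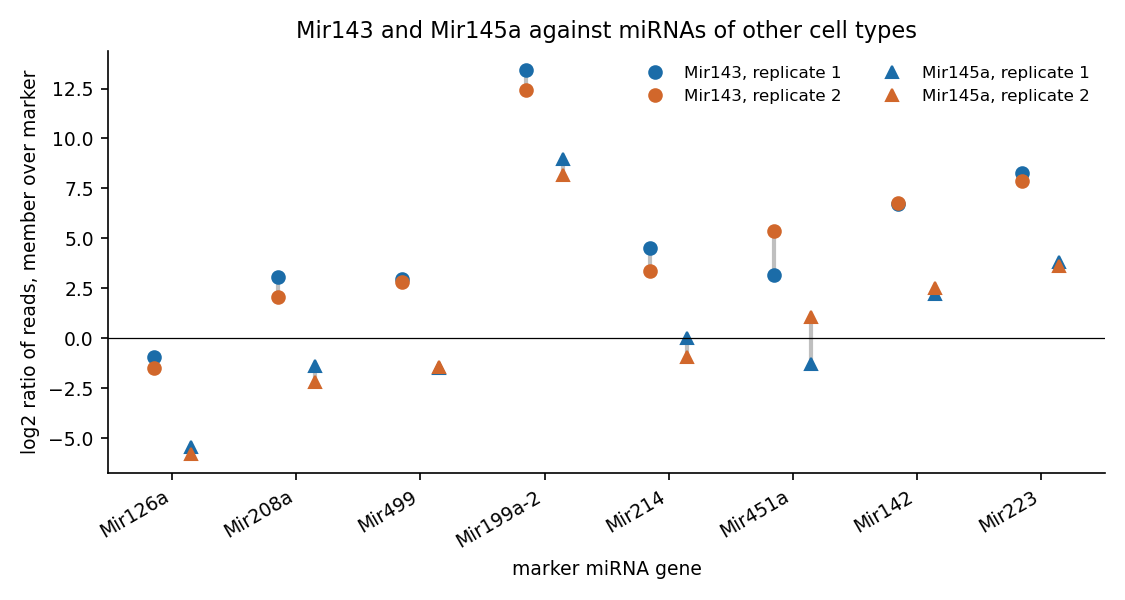
Log2 ratio of the reads of Mir143 (circles) and Mir145a (triangles) to each detected marker miRNA gene in replicate 1 (blue) and replicate 2 (orange), with lines joining the libraries. Mir143 lies above 0 for every marker shown but Mir126a. The ratio to Mir451a shows the widest gap between libraries for both members. The narrowest gaps are those to Mir142 and Mir499 for Mir143, and those to Mir499 and Mir223 for Mir145a.

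Summed levels of the marker lists of other cell types are given beside the change of Mir143. Single genes make up most of several sums. The summed level of the endothelial list (3 of 4 genes detected) was 86801 CPM in replicate 1 and 114723 in replicate 2, and that of the cardiomyocyte list (6 of 7) 10835 and 14802 CPM. In the latter, Mir208a and Mir208b passed the exact binomial test as higher in replicate 2 and the other 5 genes, Mir499 among them, were not called. By the same test 30.9% of all 424 tested genes were called as higher and 21.9% as lower in replicate 2. The stromal list (3 of 4) had 1952 and 3823 CPM, of which Mir214 made up 1935 and 3808, while Mir199b was called as lower in replicate 2. The leukocyte list (4 of 4) had 6557 and 7238 CPM. In it Mir150, Mir155 and Mir223 were called as higher in replicate 2 and Mir142, a defining marker, as lower. The red blood cell list (2 of 2) had 7165 and 1219 CPM. The epithelial list (5 of 6) had 148 and 3672 CPM. Mir205, its defining marker, had 2.30 and 1963 CPM and Mir200c 82.6 and 1652 CPM. Mir141 was also called as higher in replicate 2, Mir200b and Mir429 were called as lower, and Mir200a was not called. Mir206 of skeletal muscle had 6.26 and 4.92 CPM. The summed level of Mir143 and Mir145a was 45693 and 40641 CPM. The part of these differences in the change of Mir143 was not tested.

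In a list of known regulators of vascular smooth muscle that includes Mir143 and Mir145a, 23 of 24 miRNA genes were matched by name, and 22 were detected. Mir663 was not matched. Of the 23, all tested, 10 passed the exact binomial test as higher in replicate 2 and 6 as lower there, and 7 were not called, with a median log2 ratio of 0.20 beside 0.07 for all 424 tested genes. Over all tested genes, 30.9% were higher and 21.9% lower in replicate 2. In this list 11 genes share a 22-base stretch. Mir378a, Mir23b, Mir143 and Mir21a were its most abundant members. Mir21a, known to rise in injured vessel walls, had 1899 CPM (5768 reads) in replicate 1 and 15190 CPM (80270 reads) in replicate 2. Mir221 and Mir222 are known to favour the proliferating state of smooth muscle but are also made in endothelium. Mir221 had 1469 and 4352 CPM (4461 and 22996 reads) and Mir222 had 87.6 and 546.5 CPM (266 and 2888 reads). The 6 that were lower in replicate 2 were Mir143, Mir378a, Mir23b, Mir10a, Mir204 and Mir24-2, of which Mir10a, with 1423 and 1340 CPM, is also known from smooth muscle.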

How the data were processed

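Small RNA libraries of heart tissue were counted per miRNA gene. The authors deposited raw read counts, 1 table per library with 2202 genes and a column each for either strand, the sense strand and the opposite strand, not normalized. Alignment was to mm10 (GRCm38) per the labels, with GENCODE M21 as annotation per the deposited text files. The aligner, the counter and trimming are not given in any source used here. Summary lines for reads without a gene were left out of totals. Replicate 1 held 3037063 and replicate 2 held 5284446 sense reads in miRNA genes, 32.1% and 27.0% of each library. Multimapping reads (40.7% and 32.5%) entered no gene's count, and CAST/EiJ alleles unlike the reference could lose reads. No molecular identifiers are recorded.

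The sense column was used, and all gene IDs matched GENCODE. Genes with 10 or more reads over the libraries entered a two-sided exact binomial test given the library totals, with Benjamini-Hochberg adjustment over all 424 and a threshold of 0.05. Fisher's exact test compared the ratio of the members between libraries. Alternatives used TMM and an exact test with the common dispersion from edgeR 4.0.16, size factors from DESeq2 1.42.0, other denominators, the column for either strand and other pair definitions. Scripts ran in R 4.3.3, Python 3.11.15 and scipy 1.17.1 and were tested on simulated data. Named were the members, the 3 genes next above and below each in level, the 5 nearest in log2 CPM, the most abundant list members and defining markers, and set places in the order of neighbouring pairs (3 largest, 3 smallest, 2 on either side). Mir145b, Mir10a, Mir204, Mir24-2, Mir1a-2, Mir429, Mir200a and the example of Mir221 over Mir222 were added after their values were seen. Members, lists and markers were chosen with earlier results of these data known.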

Additional observations from a re-analysis of the deposited data

How the results depend on the processing

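The ratio of Mir143 to Mir145a does not depend on scaling by construction. Its log2 value ran from 4.27 to 4.47 when 1 library was left out, was 4.35 from summed counts and 4.37 in the column for either strand, and was 4.52 per base of hairpin, a setting chosen after seeing the data. Leaving out 1 library put Mir143 between 38639 and 43725 CPM and Mir145a between 1968 and 2001 CPM, at place 9 and at places 46 to 49. Levels followed the denominator, as they must. Mir143 had 33269 and Mir145a 1604 per 1000000 reads mapped to 1 place, 12228 and 586 per 1000000 of all reads, 47395 and 2282 without Mir378a in the total, and 55519 and 2675 in the column for either strand, where they stood at places 7 and 43. Neither member gained reads in that column. Its total was lower, with 2252906 reads in replicate 1 and 3919613 in replicate 2. Among genes without a shared stretch the places were 7 and 41, since genes above them were left out. Mir145a had 1911 CPM with DESeq2 size factors. Between the libraries, Mir143 was lower in replicate 2 under every scaling run (log2 ratio from -0.43 to -0.17), but with the common dispersion of edgeR (-0.20) it did not pass. The sign of the uncalled log2 ratio of Mir145a turned with TMM (-0.0011), in the exact test of edgeR (-0.0011) and relative to all reads (-0.22, adjusted p = 8.17e-21, exact binomial test, chosen after seeing the data). Genes that differed numbered 12 in the exact test of edgeR against 224 by the binomial test. Neighbouring pairs numbered 35 without shared stretches and 17 with at least 1000 reads, the latter chosen after seeing the data. With 2 libraries and 1 donor record, no alternative here measures the spread between animals.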
